A study of Mus musculus with 6 samples.

Results

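Long intergenic noncoding RNAs (lincRNAs) are transcripts from between protein-coding genes that carry no long reading frame. The 150 lincRNA genes with the most reads in mouse pancreatic islets were compared between Dpy30 knockout and control islets. They were chosen from the 5475 genes that the GENCODE vM21 annotation types as lincRNA, as those of highest mean CPM (reads scaled to the library total) over all 6 libraries. H19, Meg3, Rian, Mirg, Peg13 and Gm42418 were left out by name, and 4 of these 6 are typed lincRNA in that annotation. Of the 5475 genes, 2559 had at least 1 read. The choice therefore used the levels in both groups, so the levels themselves are a description. A gene that was high in 1 group could enter through that group alone.

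The libraries were made from islets of C57BL/6 mice at postnatal day 24. There were 3 Dpy30 knockout libraries and 3 control libraries, each from 100 to 200 hand-picked islets of 1 mouse that the protocol gives as male. Which Cre line and which deleted part of the gene were used is not in the labels, and neither is the genotype of the controls beyond that word. RNA with a poly(A) tail was selected, with 1000 ng of total RNA going in, and made into strand-specific libraries with 9 cycles of amplification. The series asks what methylation of histone H3 at lysine 4 does in islet endocrine cells as they mature after birth.

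The Dpy30 protein is part of all the enzyme complexes that methylate lysine 4 of histone H3, and the trimethyl form of this mark sits at the start sites of active genes, lincRNA genes included. Most lincRNAs are made by RNA polymerase II, capped, spliced and polyadenylated like messenger RNA, but they are as a class less abundant, have fewer exons and vary more between cell types than messenger RNA. Some have known roles in the nucleus, as scaffolds of nuclear bodies or in X inactivation, and others serve as hosts of small RNAs that are cut from their introns or exons. For most of the predicted lincRNAs described here no role is given.

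Gene reads numbered 22610049, 17075991 and 23897133 in knockout replicates 1 to 3, and 25120650, 25272669 and 24493056 in control replicates 1 to 3. The targeted gene was checked through its transcripts, since its summed level did not pass the test (31.9, 53.2 and 30.7 CPM in knockout replicates 1 to 3, against 25.6, 30.2 and 31.8 CPM in control replicates 1 to 3; log2 fold change 0.40, edgeR adjusted p = 0.298). The transcript Dpy30-206 took 15.5 ± 1.19% of the reads of Dpy30 in the knockout libraries and 89.2 ± 2.27% in control islets (means ± SD of 3 libraries each), and Dpy30-205 held 79.8 ± 0.469% in knockout islets and 2.88 ± 2.59% in control islets. Beta cell markers summed to 71337 to 121594 CPM in knockout libraries and to 159393 to 263929 CPM in control libraries, so islet genes were high in every library. Of the 9 beta cell markers, 2 fell, as did 2 of 3 delta cell markers, 1 of 5 alpha cell markers and Ppy. Alpha cell markers summed to 23964 to 28877 CPM in knockout libraries and to 36430 to 65518 CPM in control libraries. Delta cell markers summed to 1455 to 1869 and 3109 to 3440 CPM in the same order, and Ppy was at 456 to 1017 and 2540 to 4642 CPM. The beta, alpha and delta sums and Ppy did not overlap between the groups. Median log2 fold changes were -0.51 for beta, -0.57 for alpha and -0.91 for delta cell markers, and Ppy had -2.38. Acinar markers mark the exocrine tissue around islets. They summed to 2631 to 13865 CPM in knockout libraries and to 871 to 3456 CPM in control libraries. Of the 12 tested, 1 was higher in knockout islets, and the median log2 fold change was 1.72. Endothelial markers summed to 813 to 1063 CPM in knockout libraries and to 646 to 763 CPM in control libraries. Of these 8 markers, 2 were higher in knockout islets, and the median log2 fold change was 0.59. Mesenchymal markers summed to 363 to 743 CPM in knockout libraries and to 199.7 to 429 CPM in control libraries, with 1 of 8 higher and a median log2 fold change of 0.87. Of 7 ductal markers and 8 immune markers, 1 of each list fell and 1 rose, and no Schwann or red blood cell marker was called. In bulk islets, fewer cells of a type and less RNA per cell cannot be told apart, and the part of cell makeup in the results below was not tested.

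Of the 6 libraries, 2 stood apart, 1 in sex-linked genes and 1 in ribosomal RNA-like reads. Both replicate 1 libraries also differed from the rest in some genes. Atf3, for example, was at 431 CPM in knockout replicate 1 and 530 CPM in control replicate 1, against 0.215 to 38.8 CPM in the others. The library labelled control replicate 2 went against the protocol's statement of sex. Its Xist level was 921 CPM, against 0.241, 0.378 and 1.69 CPM in knockout replicates 1 to 3 and 0.668 and 0.452 CPM in control replicates 1 and 3. The Y-linked gene Ddx3y was at 0 CPM in that library and at 66.3 to 167 CPM in the other 5 libraries, and Eif2s3y was at 0.0431 CPM there and at 59.3 to 66.9 CPM in the others. Knockout replicate 2 held 158399 CPM of Gm42418, a locus of ribosomal RNA-like sequence that was left out of the 150, where the other 5 libraries held 1015 to 2145 CPM. That locus took 14.7% of its reads. Values without 1 or both of the replicate 2 libraries are given below beside several results that moved with them.

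**Figure D1:**
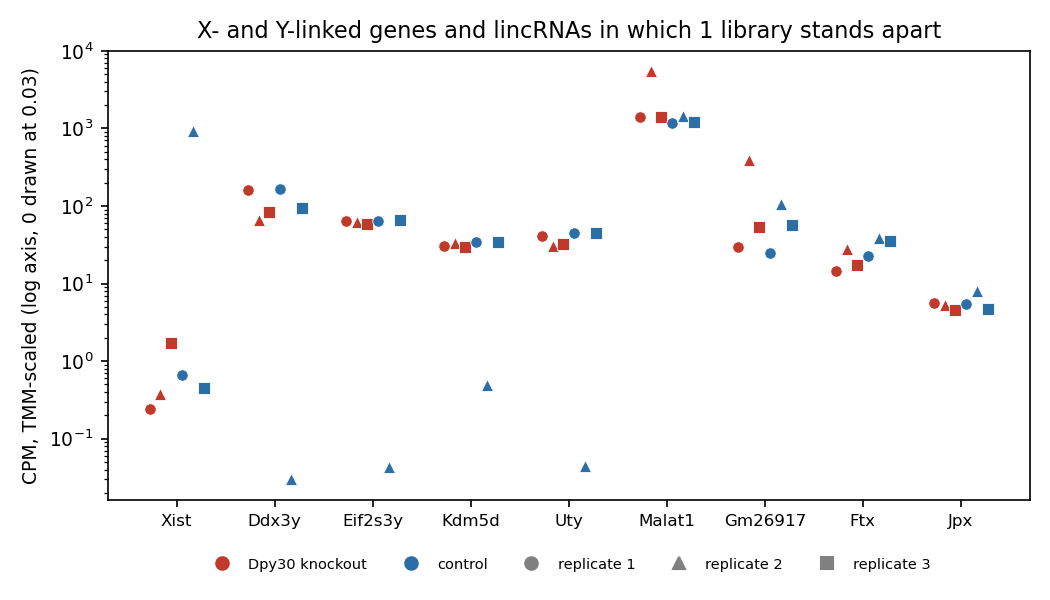
TMM-scaled CPM of X- and Y-linked genes and of the lincRNAs Malat1, Gm26917, Ftx and Jpx on a log axis, with 1 point per library (knockout in red left of control in blue, shape for the replicate number; Ddx3y at 0 CPM in control replicate 2 is drawn at 0.03). Control replicate 2 has Xist at 921 CPM and the Y-linked genes at under 1 CPM, and knockout replicate 2 has the highest Malat1 and Gm26917.

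The levels of the 150 lincRNAs spanned nearly 3 orders of magnitude. Their mean CPM ran from 2.76 to 1981 with a median of 6.60, and 7 of them were at 100 CPM or above, 50 at 10 CPM or above and 102 at 5 CPM or above. At the lower end, Gm36839, Gm45899 and Gm36445 took the last 3 places with 2.80, 2.77 and 2.76 CPM, and 2310001H17Rik, Gm43597 and Gm46123 just missed with 2.76, 2.75 and 2.71 CPM. Per length the order differed, with mean TPM (a level scaled by transcript length and library total) from 0.256 to 7827 and a median of 4.65. When the same number of lincRNAs was ranked by TPM, 107 of the 150 were shared.

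The top of the list was held by RNAs of known and unknown function. Malat1, a nuclear RNA of the speckles where splicing factors gather, had the most reads, with 1404, 5480 and 1408 CPM in knockout replicates 1 to 3, against 1189, 1458 and 1215 CPM in control replicates 1 to 3. Knockout replicate 2 stood above all others and the remaining libraries overlapped, and the log2 fold change of 1.10 did not pass the test (edgeR adjusted p = 0.209). Without knockout replicate 2 it was 0.13 (adjusted p = 0.617). The predicted RNA 2900097C17Rik followed with 335 ± 90.0 CPM in knockout islets and 401 ± 19.5 CPM in control islets (means ± SD of 3 libraries each), and 44.7% of the 31-base stretches of its leading transcript also occur in transcripts of other genes.

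Bc1 ranked 3 by reads and 1 by TPM. It is a short cytoplasmic RNA of rodents, made by RNA polymerase III, derived from a repeat element and known from neurons, where it represses translation. Its level was 310, 470 and 262 CPM in knockout replicates 1 to 3, against 260, 233 and 299 CPM in control replicates 1 to 3. The groups overlapped, and the log2 fold change of 0.40 did not pass the test (edgeR adjusted p = 0.313). Without knockout replicate 2, the highest of the 6, it was 0.12 (adjusted p = 0.685). The gene lies on the plus strand at chr7:144914470-144914637 in GRCm38 and its annotated transcript has a single exon of 168 bases. It is shown because it has the highest level per length of the 150 in libraries that were selected for poly(A), with its A-rich stretch in capitals (bases 77 to 126, of which 43 are A):
Bc1: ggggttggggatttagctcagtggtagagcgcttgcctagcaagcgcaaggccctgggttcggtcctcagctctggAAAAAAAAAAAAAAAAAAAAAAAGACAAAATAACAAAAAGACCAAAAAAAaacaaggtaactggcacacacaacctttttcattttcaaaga

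Neat1 ranked 4 and is described with the lincRNAs that fell. Xist, the RNA that coats the inactive X chromosome of female cells, ranked 5 only through control replicate 2. Its log2 fold change was -8.56 (edgeR adjusted p = 0.0967) with that library and 0.50 (adjusted p = 0.777) without it. Dbpht2 had 83.5, 36.3 and 78.3 CPM in knockout replicates 1 to 3, against 166, 115 and 161 CPM in control replicates 1 to 3. The groups did not overlap, but the log2 fold change of -1.16 (SE 0.31) missed the threshold (edgeR adjusted p = 0.0538) and passed it with the replicate number as a block (adjusted p = 0.00775). It also passed with DESeq2 (adjusted p = 0.00182), with limma-voom (0.0497), with edgeR on unfiltered counts (0.00880), without knockout replicate 2 (log2 fold change -0.86, adjusted p = 0.0462) and without both replicate 2 libraries (adjusted p = 0.0350). It did not pass in the other 5 leave-one-out fits, with an adjusted p of 0.0606 to 0.132. Gm26917, at a ribosomal RNA-like locus on chromosome 17, had 29.3, 388 and 54.0 CPM in knockout replicates 1 to 3, against 24.6, 105 and 56.3 CPM in control replicates 1 to 3, so it was highest in the library that also held the most Gm42418. Its log2 fold change was 1.34 (edgeR adjusted p = 0.386) in all libraries and -0.57 (adjusted p = 0.587) without knockout replicate 2.

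The lincRNA 1700020I14Rik, listed as Oip5os1 in the authors' deposited table and also known as Cyrano, carries a near-complete site for the islet-rich microRNA miR-7 and lowers the level of that microRNA in mouse brain. It had 86.5, 37.5 and 62.5 CPM in knockout replicates 1 to 3, against 72.1, 78.5 and 63.1 CPM in control replicates 1 to 3, and its log2 fold change, -0.19 (SE 0.27), did not reach a call (edgeR adjusted p = 0.687). Without knockout replicate 2, the lowest library, it was 0.07 (adjusted p = 0.848). A230057D06Rik, whose body holds a cluster of Mir344 genes, averaged 55.5 ± 5.55 CPM in knockout islets and 59.0 ± 5.78 CPM in control islets (means ± SD of 3 libraries each). Tmem250-ps averaged 48.4 ± 6.20 CPM in knockout islets and 56.9 ± 6.59 CPM in control islets, and Gm37494 averaged 40.7 ± 3.37 CPM in knockout islets and 49.3 ± 7.12 CPM in control islets, again without a call. The last of the 12, AC160336.1, fell in knockout islets and is described below.

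**Figure D2:**
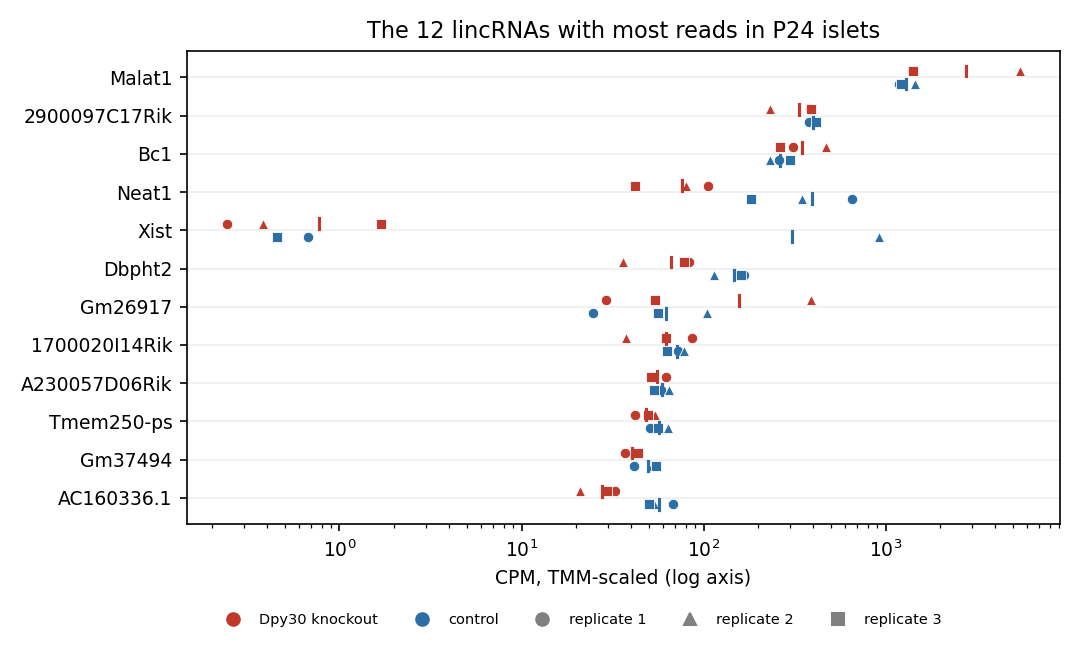
TMM-scaled CPM on a log axis of the 12 lincRNAs with the most reads, 1 row each, with a point per library (knockout in red above control in blue, shape for the replicate number) and a bar at each group's mean. Neat1 and AC160336.1 separate the groups and were called, Dbpht2 separates them without a call, and Malat1, Xist and Gm26917 are set apart by 1 library.

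Summed over the 150 lincRNAs, the share of library reads was 0.394, 0.747 and 0.389% in knockout replicates 1 to 3, against 0.411, 0.488 and 0.388% in control replicates 1 to 3. The groups overlapped (0.510 ± 0.205% in knockout islets and 0.429 ± 0.0524% in control islets, means ± SD of 3 libraries each), and the highest value of each group came from the library that stood apart. Without Malat1 and Xist, a choice made after their values were seen, the share was 0.239, 0.238 and 0.232% in knockout replicates 1 to 3, against 0.298, 0.269 and 0.267% in control replicates 1 to 3. Those groups did not overlap on library totals, but Gm42418 took 14.7% of the reads of knockout replicate 2, which lowers its share. With that locus out of the total, the share of knockout replicate 2 falls within the range of the control libraries and the groups overlap. Summed TPM was higher in knockout islets, at 12344, 11272 and 10662 in knockout replicates 1 to 3, against 8212, 6525 and 8982 in control replicates 1 to 3. Most of that sum was Bc1, whose TPM averaged 9494 in knockout islets and 6159 in control islets. By reads, Bc1 overlapped between the groups, as given above, so the summed TPM does not show more lincRNA in knockout islets. No test was made of these sums.

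More of the 150 lincRNAs fell than rose in knockout islets, among them the nuclear RNA Neat1, the snoRNA host Snhg18 and the predicted RNAs Gm45847, Gm17767 and Gm30648, while Gm49636 had the largest rise. All 150 passed the filter on low counts, and 17 of them (11.3%) fell and 3 (2%) rose (quasi-likelihood test of edgeR, with p adjusted by Benjamini-Hochberg over all 16430 tested genes and called below 0.05). Of all tested genes, 5.84% fell and 4.1% rose, 9.95% in either direction. The median log2 fold change of the 150 was -0.27, against 0.01 over all tested genes, with 112 lincRNAs below 0 and 38 above. The 357 other lincRNAs that could be tested had a median of -0.16, with 19 (5.32%) lower and 22 (6.16%) higher in knockout islets. Protein-coding genes had a median of 0.02, with 6.04% lower and 4.35% higher. The 404 tested antisense RNAs had a median of -0.21, with 7.67% lower and 3.22% higher.

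These counts moved with the libraries used. Without control replicate 2, 13 of the 150 fell and 4 rose, against 3.03% and 1.69% of all tested genes. Without knockout replicate 2, 21 fell and 3 rose, against 4.62% and 3.26% of all tested genes. With both left out, 6 fell and 1 rose, against 1.63% and 0.985% of all tested genes, and the median log2 fold change was -0.25. The 6 of the 20 calls kept there were those of Gm30648, Snhg18, Gm10451, Gm17767, AC117816.1 and Gm49636. With the replicate number as a block, 26 fell and 3 rose, against 7.86% and 6.93% of all tested genes, and with the Wald test of DESeq2 26 fell and 6 rose, against 8.77% and 7.31%. In the authors' deposited table, 26 of the 149 that have an adjusted p were lower and 6 higher in knockout islets at an adjusted p below 0.05, against 7.76% and 6.66% of its genes. All 20 lincRNAs called here are among those 32.

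The number of lincRNAs called higher also moved with how the 150 were chosen. Ranked by control libraries alone, 142 of the 150 were shared, and 20 fell and 1 rose. Ranked by TPM, 147 of the 150 could be tested, and 16 fell and 8 rose. Of all tested genes, 5.84% fell and 4.1% rose. The groups did not overlap for 38 lincRNAs that were lower and 7 that were higher in knockout islets (25.3% and 4.67%), against 17.2% and 17.6% of all tested genes. Of the 130 lincRNAs that were not called, 92 of the 129 other than Xist lay within 0.5 of a log2 fold change of 0. Their range without Xist was from -2.15 for Gm27000 (5.60, 0 and 0 CPM in knockout replicates 1 to 3, against 13.7, 9.42 and 2.32 CPM in control replicates 1 to 3) to 1.62 for 1810028F09Rik (7.21, 2.58 and 18.4 CPM in knockout replicates 1 to 3, against 3.34, 4.44 and 1.48 CPM in control replicates 1 to 3). Both of these overlapped between groups.

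**Figure D3:**
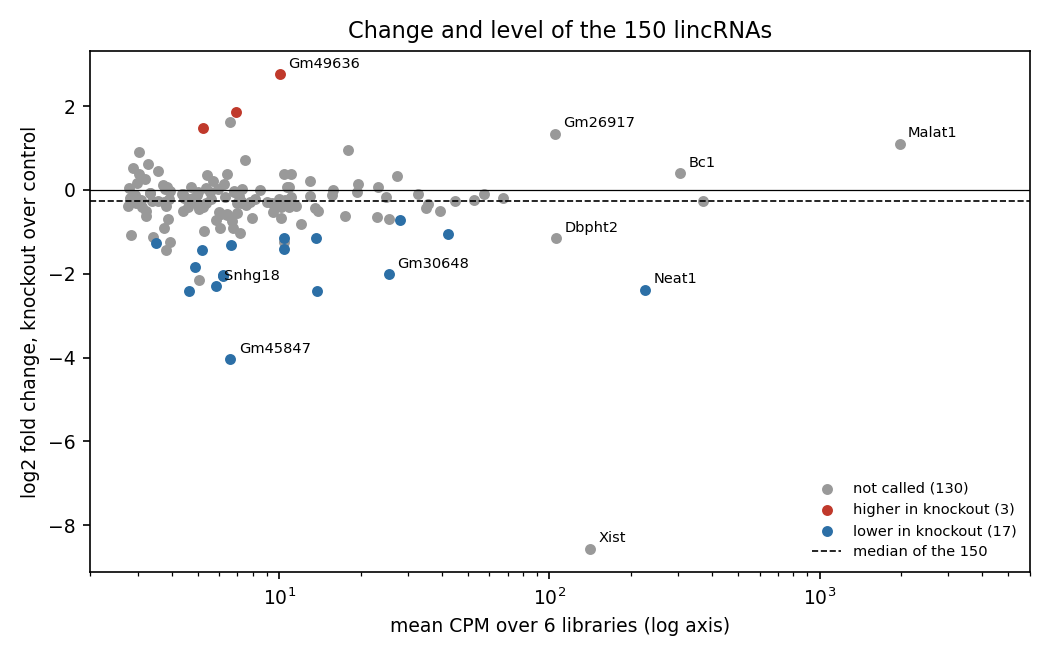
Log2 fold change, knockout over control, against mean CPM over the 6 libraries on a log axis for the 150 lincRNAs, with those lower in knockout islets in blue, those higher in red and those not called in grey. The dashed line at the median of -0.27 lies below 0, and Xist at -8.56 is set by control replicate 2.

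Among RNAs with a known role, Neat1 and Snhg18 fell. Neat1 is the architectural RNA around which paraspeckles, a kind of nuclear body, are built. Its level was 106, 79.7 and 41.8 CPM in knockout replicates 1 to 3, against 651, 346 and 183 CPM in control replicates 1 to 3. Every knockout library was below every control library, although the control libraries spread 3.55-fold, and the level was 5.20 times lower in knockout islets (log2 fold change -2.38, SE 0.49, edgeR adjusted p = 0.0229). Neat1 lost its call without knockout replicate 2 (edgeR adjusted p = 0.0768, log2 fold change -2.41) and without knockout replicate 3 (adjusted p = 0.0747, log2 fold change -2.08), and kept it in the other 4 of the 6 fits that each leave out 1 library (leave-one-out fits). The gene lies on the minus strand at chr19:5824708-5845478 in GRCm38, 22035 bp from Malat1, which lies on the same strand and was not called.

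The shares of the Neat1 transcripts overlapped between the groups. The short transcript Neat1-202 (3004 bases) held 95.2 ± 0.610% of Neat1 TPM in knockout islets and 95.1 ± 1.60% in control islets (means ± SD of 3 libraries each). The long transcript Neat1-201 (20771 bases), the form that paraspeckles need, held 3.15 ± 1.15% in knockout islets and 2.42 ± 0.119% in control islets. Salmon divides the reads that both transcripts share by estimate, and the long form lacks a regular poly(A) tail, so poly(A)-selected libraries may hold it only in part. Malat1 transcripts differed in 1 library, where Malat1-203 held 0% of Malat1 TPM in knockout replicate 2 and 29.2 to 37.7% in the other 5.

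Snhg18 is the host gene of the small nucleolar RNA Snord123. It had 1.77, 1.70 and 2.60 CPM in knockout replicates 1 to 3, against 9.14, 11.6 and 9.28 CPM in control replicates 1 to 3, and was 4.91 times lower in knockout islets (log2 fold change -2.30, SE 0.26, edgeR adjusted p = 0.00293). The groups were far apart, and the call held in all 6 leave-one-out fits and without both libraries that stood apart (log2 fold change -2.08, adjusted p = 0.0436). It was the only one of 16 tested snoRNA host genes that was called, and that list had a median log2 fold change of 0.02. The other hosts among the 150 overlapped between groups. Snhg20 averaged 12.7 ± 6.63 CPM in knockout islets and 9.76 ± 1.69 CPM in control islets, Snhg12 averaged 11.1 ± 3.72 CPM in knockout islets and 10.4 ± 1.33 CPM in control islets, and Snhg6 averaged 9.32 ± 3.23 CPM in knockout islets and 5.64 ± 0.857 CPM in control islets (means ± SD of 3 libraries each). Their log2 fold changes moved with knockout replicate 2: Snhg20 had -0.14 without it and 0.37 with it, Snhg12 had -0.22 and 0.08, and Snhg6 had 0.46 and 0.72. Epb41l4aos had 2.44 to 4.03 CPM in knockout islets and 1.93 to 3.09 CPM in control islets.

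The remaining lincRNAs that fell are predicted or clone-named genes with no role given. Gm45847 fell most, with 1.17, 0.571 and 0.598 CPM in knockout replicates 1 to 3, against 17.4, 16.3 and 5.58 CPM in control replicates 1 to 3. It was 16.4 times lower in knockout islets (log2 fold change -4.04, SE 0.52, edgeR adjusted p = 0.00424), and the highest knockout library stayed below the lowest control library. Gm45847 lies on the plus strand at chr7:123031415-123068305 and overlaps Gm45846, another gene on that strand, so the counts of these genes may be mixed.

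Gm30648 had the smallest adjusted p of the 150. Its level was 11.5, 9.03 and 10.8 CPM in knockout replicates 1 to 3, against 43.4, 45.9 and 36.6 CPM in control replicates 1 to 3, or 4.01 times lower in knockout islets (log2 fold change -2.00, SE 0.16, edgeR adjusted p = 0.000888). The libraries of each group lay close together, and the call held in all 6 leave-one-out fits. Gm17767 had 5.58, 2.84 and 4.93 CPM in knockout replicates 1 to 3, against 33.4, 19.2 and 19.3 CPM in control replicates 1 to 3 (log2 fold change -2.42, SE 0.33, adjusted p = 0.00468). AC137585.3, listed as Gm50353 in the authors' deposited table, had 0.845, 1.89 and 1.85 CPM in knockout replicates 1 to 3, against 8.18, 7.60 and 8.41 CPM in control replicates 1 to 3 (log2 fold change -2.41, SE 0.34, adjusted p = 0.00529). Both separated the groups and were called in all 6 leave-one-out fits.

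A further 4 were called in all 6 leave-one-out fits. Gm10451 had 2.09, 3.02 and 2.35 CPM in knockout replicates 1 to 3, against 8.69, 12.3 and 9.81 CPM in control replicates 1 to 3 (log2 fold change -2.06, edgeR adjusted p = 0.00368). Gm30173 had 1.73, 2.96 and 2.82 CPM in knockout replicates 1 to 3, against 14.2, 9.60 and 6.90 CPM in control replicates 1 to 3 (log2 fold change -2.04, adjusted p = 0.0112). Gm46565 had 2.67, 3.26 and 2.64 CPM in knockout replicates 1 to 3, against 7.54, 7.81 and 7.94 CPM in control replicates 1 to 3 (log2 fold change -1.44, adjusted p = 0.00745). None of these overlapped between groups. AC117816.1, listed as 9130016M20Rik in the authors' deposited table, had 5.62, 5.17 and 6.66 CPM in knockout replicates 1 to 3, against 16.1, 14.3 and 15.8 CPM in control replicates 1 to 3 (log2 fold change -1.40, adjusted p = 0.00461).

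Others rested on fewer libraries. Gm13003 had 1.61, 3.28 and 1.81 CPM in knockout replicates 1 to 3, against 8.43, 9.34 and 5.75 CPM in control replicates 1 to 3 (log2 fold change -1.83, edgeR adjusted p = 0.0168), and it was called in 3 of the 6 leave-one-out fits. Its edgeR adjusted p was 0.0517 and 0.0707 with knockout replicate 1 or 3 left out in turn, and 0.0567 with control replicate 2 left out. For 2610035D17Rik, with 4.05, 3.91 and 3.65 CPM in knockout replicates 1 to 3, against 14.5, 6.59 and 7.64 CPM in control replicates 1 to 3, the call (log2 fold change -1.31, adjusted p = 0.0425) was kept only in the fit without control replicate 2, with an adjusted p of 0.0712 to 0.132 in the other 5. AC160336.1 had 32.8, 20.8 and 29.4 CPM in knockout replicates 1 to 3, against 67.7, 53.7 and 50.2 CPM in control replicates 1 to 3 (log2 fold change -1.04, adjusted p = 0.0169), and was called in 4 of the 6, with an adjusted p of 0.0576 without knockout replicate 3 and 0.0503 without control replicate 1. Its single exon of 93147 bases overlaps the protein-coding Gm5624 on the same strand, and 20.1% of its 31-base stretches occur in transcripts of other genes, so its reads are uncertain.

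The other 4 that fell were 1810008I18Rik (log2 fold change -1.14, edgeR adjusted p = 0.00996), 4933404O12Rik (-1.15, adjusted p = 0.0139), Gm36543 (-1.26, adjusted p = 0.0253) and 5031425E22Rik (-0.73, adjusted p = 0.0426). They fall outside the rule for named genes and are given so that every called lincRNA is accounted for. The first of them was called in all 6 leave-one-out fits, 4933404O12Rik in 5, and Gm36543 and 5031425E22Rik only without knockout replicate 2, with an adjusted p of 0.0573 to 0.139 in the other leave-one-out fits. Without control replicate 2, the library that went against its stated sex, the calls of 4933404O12Rik (edgeR adjusted p = 0.0538), Gm36543, 5031425E22Rik and Gm13003 were lost, and the other 16 of the 20 were kept.

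Only 3 of the 150 rose, and all are predicted or clone-named. Gm49636 had 13.97, 18.2 and 18.8 CPM in knockout replicates 1 to 3, against 1.21, 3.96 and 2.38 CPM in control replicates 1 to 3, or 6.74-fold higher in knockout islets (log2 fold change 2.75, SE 0.40, edgeR adjusted p = 0.00596). Gm49477 had 11.3, 12.9 and 7.79 CPM in knockout replicates 1 to 3, against 3.25, 3.62 and 1.93 CPM in control replicates 1 to 3 (log2 fold change 1.86, SE 0.31, adjusted p = 0.0109). C820005J03Rik had 7.63, 7.37 and 7.41 CPM in knockout replicates 1 to 3, against 2.59, 2.89 and 2.63 CPM in control replicates 1 to 3 (log2 fold change 1.47, SE 0.21, adjusted p = 0.0063). The groups did not overlap for any of the 3, and each was called in all 6 leave-one-out fits. Without both libraries that stood apart, Gm49636 kept its call (adjusted p = 0.0339) and Gm49477 (adjusted p = 0.0702) and C820005J03Rik (adjusted p = 0.0532) did not. Each has 2 exons in its leading transcript.

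**Figure D4:**
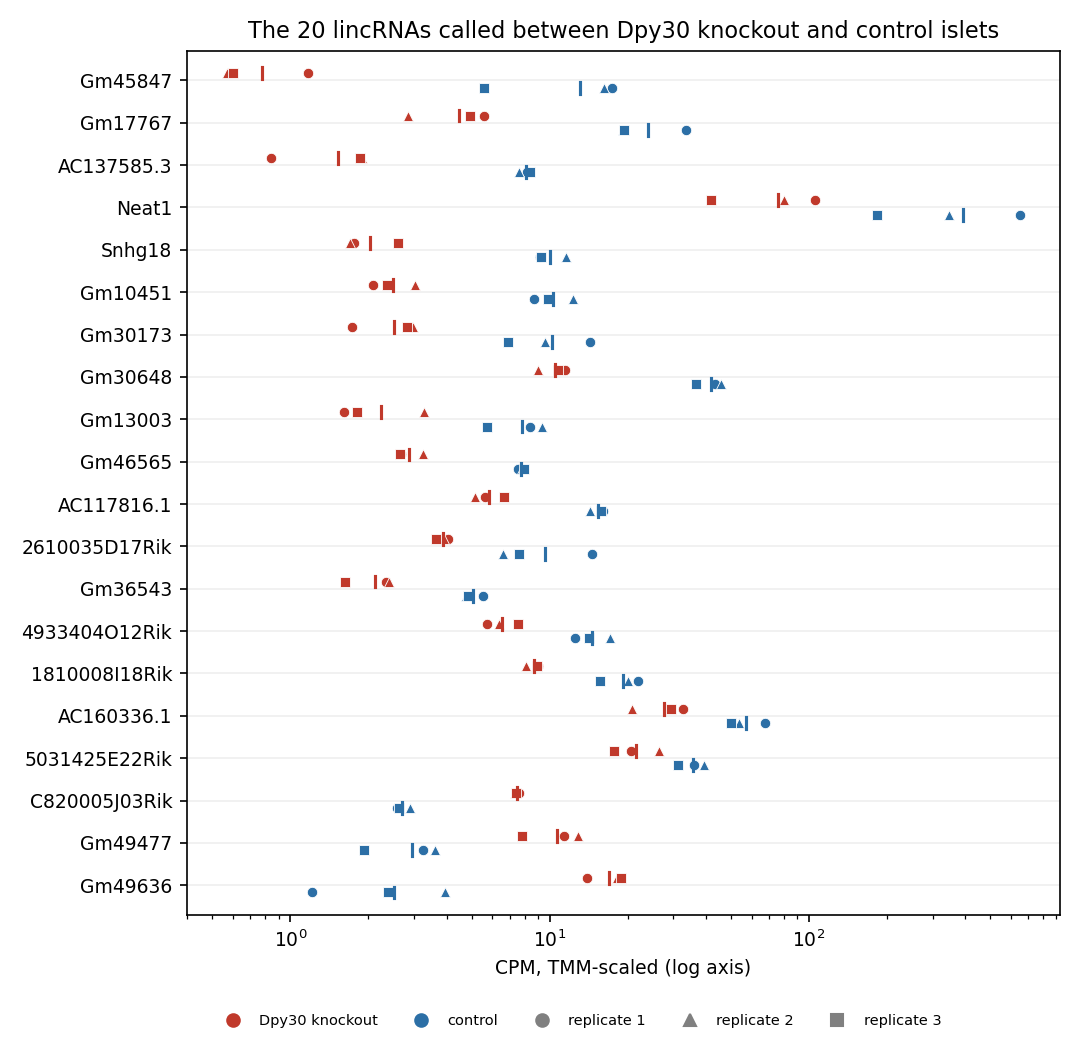
TMM-scaled CPM on a log axis of the 20 lincRNAs that were called, ordered by log2 fold change from the lowest at the top, with a point per library (knockout in red above control in blue, shape for the replicate number) and a bar at each group's mean. In no row do the groups overlap, and the distance is widest for Gm45847.

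Among the lincRNAs that fell and whose CpG counts are given here, only Snhg18 had a CpG-rich promoter window. The windows of the other lincRNAs that fell are not described. RefSeq on GRCm38.p6 gives windows from 250 bases before to 50 after a start for 82 of the 150, too few to compare CpG content over the set, and for 12 of the 17 that fell. Shown are 3 of the 7 that fell and whose RefSeq start lies within 100 bases of the leading transcript's start. Malat1 is shown as an abundant lincRNA that was not called. CpG pairs, which the CXXC domains of H3K4 methyltransferase complexes bind when unmethylated, are in capitals. The windows are chr15:32244613-32244912 on the minus strand for Snhg18, chr3:134199826-134200125 on the plus strand for Gm30648, chr4:137165017-137165316 on the minus strand for Gm13003 and chr19:5802623-5802922 on the minus strand for Malat1:
Snhg18: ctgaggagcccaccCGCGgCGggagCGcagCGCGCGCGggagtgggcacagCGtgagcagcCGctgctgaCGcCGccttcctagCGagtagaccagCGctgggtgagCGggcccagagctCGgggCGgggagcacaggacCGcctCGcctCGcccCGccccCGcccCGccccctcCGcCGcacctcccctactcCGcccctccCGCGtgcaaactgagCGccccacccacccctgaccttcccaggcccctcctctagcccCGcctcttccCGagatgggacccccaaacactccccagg
Gm30648: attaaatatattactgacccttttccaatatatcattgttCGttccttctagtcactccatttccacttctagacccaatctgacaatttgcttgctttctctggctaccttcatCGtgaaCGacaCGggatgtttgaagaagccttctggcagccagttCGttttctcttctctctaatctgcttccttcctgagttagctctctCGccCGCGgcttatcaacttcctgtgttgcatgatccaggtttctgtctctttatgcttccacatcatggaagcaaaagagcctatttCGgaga
Gm13003: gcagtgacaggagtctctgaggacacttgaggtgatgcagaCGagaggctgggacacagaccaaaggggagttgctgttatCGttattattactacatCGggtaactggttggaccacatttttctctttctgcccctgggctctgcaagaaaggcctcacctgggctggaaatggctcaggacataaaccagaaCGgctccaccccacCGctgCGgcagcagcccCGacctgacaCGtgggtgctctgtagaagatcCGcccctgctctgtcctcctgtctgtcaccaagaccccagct
Malat1: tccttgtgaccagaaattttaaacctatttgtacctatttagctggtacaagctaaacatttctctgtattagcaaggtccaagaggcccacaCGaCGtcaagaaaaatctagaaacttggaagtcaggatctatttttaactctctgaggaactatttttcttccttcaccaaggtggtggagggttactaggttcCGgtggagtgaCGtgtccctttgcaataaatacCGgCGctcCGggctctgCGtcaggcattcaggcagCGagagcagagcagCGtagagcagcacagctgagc

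Snhg18 had 31 CpG pairs in its window, a count that 10.6% of the 32851 RefSeq windows reached. That window also holds the start of the coding gene Sema5a, at base 32244810 on the plus strand, so its CpG pairs do not belong to Snhg18 alone. Gm30648 and Gm13003 had 9 each, a count that 56.5% of windows did not exceed, and Malat1 had 10. The windows of Gm10451 and Gm30173, which also fell, had 6 and 5, against a median of 7 over all windows. Each window was searched on both strands for TATAAA (in 13.6% of all windows), GGGCGG (35.7%) and CCAAT (37.4%), none of which contains another. TATAAA was in none of these windows. GGGCGG occurred in those of Snhg18 and Gm13003, and CCAAT in those of Gm30648 and Gm30173. A match is a description of these letters and not a site.

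LincRNAs of the X-inactivation centre other than Xist were not called. Ftx had 14.5, 27.7 and 17.4 CPM in knockout replicates 1 to 3, against 22.5, 38.5 and 35.4 CPM in control replicates 1 to 3, with -0.70 as its log2 fold change (SE 0.28, edgeR adjusted p = 0.158). It passed the threshold with the replicate block (adjusted p = 0.027), and its groups overlapped. Jpx had 4.56 to 5.65 CPM in knockout islets and 4.72 to 8.04 CPM in control islets (log2 fold change -0.23, adjusted p = 0.63), and control replicate 2 was the highest of the 6 libraries for both. Without it, the log2 fold change of Jpx was 0.03. Of 11 tested imprinting and X-inactivation RNAs, which include some that the choice left out, Peg13 fell and H19 rose. For comparison, 5.84% of all tested genes fell and 4.1% rose. Of 7 tested nuclear-retained RNAs only Neat1 was called, of 8 tested p53 and stress lincRNAs Neat1 and Trp53cor1 fell, and of 2 tested neuronal and 3 tested ribosomal RNA-like genes none was called by edgeR or DESeq2. At an unadjusted edgeR p below 0.05, 5 of the 11 imprinting and X-inactivation RNAs were lower and 1 higher. Of the 7 nuclear-retained RNAs 3 were lower and 0 higher, and of the 8 p53 and stress lincRNAs 2 and 0. At that limit 0 of the neuronal genes passed, and 2 of the ribosomal RNA-like ones were higher in knockout islets. The share of all genes there was not taken. Median log2 fold changes were -0.23 for the imprinting and X-inactivation list and -0.44 for the nuclear-retained list, which both hold Xist.

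Of the 150, 10 held a microRNA gene on the same strand, and none of these hosts was called by edgeR, with log2 fold changes from -2.15 to 0.37. At an unadjusted p below 0.05, 2 were lower in knockout islets and 0 higher, and DESeq2 called 1 lower. With the replicate number as a block, edgeR called 2 lower, Ftx and 5330434G04Rik. The libraries measured the host transcripts and not the mature microRNAs. Both Mir670hg and Gm3294 hold a copy of the gene of miR-129-5p. Mir670hg had 29.5, 38.4 and 23.4 CPM in knockout replicates 1 to 3, against 21.7, 25.5 and 25.8 CPM in control replicates 1 to 3 (log2 fold change 0.32, edgeR adjusted p = 0.328). Gm3294 had 10.5, 23.3 and 9.06 CPM in knockout replicates 1 to 3, against 12.7, 14.6 and 9.40 CPM in control replicates 1 to 3 (log2 fold change 0.22, adjusted p = 0.744). Without knockout replicate 2 their log2 fold changes were 0.12 for Mir670hg and -0.32 for Gm3294. 6720427I07Rik, whose body holds 3 let-7 genes, had 4.82, 3.53 and 1.13 CPM in knockout replicates 1 to 3, against 4.38, 2.50 and 1.60 CPM in control replicates 1 to 3 (log2 fold change 0.15, adjusted p = 0.889). The mature sequences from RefSeq are shown with bases 2 to 8, the seed, in capitals, since the let-7 members of 1 host share a seed:
mmu-miR-129-5p: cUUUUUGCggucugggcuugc
mmu-let-7a-5p: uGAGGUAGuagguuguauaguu
mmu-let-7d-5p: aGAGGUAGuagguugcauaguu
mmu-let-7f-5p: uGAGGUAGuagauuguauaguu

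For some lincRNAs that fell, the nearest protein-coding gene fell too. The nearest protein-coding start was taken for each lincRNA, at any distance. The median distance between starts was 58623 bp for the 17 that fell and 21737.5 bp for the 130 not called. Only 2 of the 17 and 22 of the 130 were within 1000 bp. Of the 14 tested neighbours of lincRNAs that fell, 4 fell (28.6%) and 0 rose, against 5.84% and 4.1% of all tested genes, with a median log2 fold change of -0.41. At an unadjusted edgeR p below 0.05, 6 of the 14 were lower and 1 higher, and DESeq2 called 6 lower and 0 higher. Of the 103 tested neighbours of lincRNAs that were not called, 7 fell (6.80%) and 3 rose. At an unadjusted p below 0.05, 15 of these were lower and 9 higher, and DESeq2 called 8 lower and 5 higher. DESeq2 called 8.77% of all its tested genes lower and 7.31% higher, and the share of all genes at an unadjusted p was not taken. With the replicate block, 4 of the 14 and 12 of the 103 fell, against 7.86% of all tested genes. With that block, 0 and 4 rose, against 6.93%. The 2 tested neighbours of lincRNAs that rose were called by neither edgeR nor DESeq2 and did not pass at an unadjusted p below 0.05. Pairs share a place in the genome and are few, and no test was made of the pairing.

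The neighbours that fell were Wnt4, A1cf, Atp8b1 and Cxxc4. Wnt4, a secreted signalling protein of the Wnt family, had 18.4, 25.7 and 34.1 CPM in knockout replicates 1 to 3, against 217, 219 and 163 CPM in control replicates 1 to 3 (log2 fold change -2.94, SE 0.25, edgeR adjusted p = 0.00101). Its start lies 112423 bp from that of Gm13003, in divergent orientation. A1cf, an RNA-binding partner of the enzyme that edits apolipoprotein B messenger RNA, averaged 9.75 ± 1.51 CPM in knockout islets and 27.9 ± 2.66 CPM in control islets (means ± SD of 3 libraries each; log2 fold change -1.51, adjusted p = 0.00295). A1cf ends 1088 bp before AC117816.1 begins on the same strand, and whether reads past the end of A1cf were counted for the lincRNA was not tested.

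Atp8b1, a phospholipid flippase, averaged 119 ± 8.09 CPM in knockout islets and 260.3 ± 10.1 CPM in control islets (means ± SD of 3 libraries each; log2 fold change -1.13, edgeR adjusted p = 0.00309), and lies 32268 bp downstream of AC137585.3. Cxxc4, a CXXC zinc finger protein that binds Dishevelled, averaged 64.5 ± 12.04 CPM in knockout islets and 120.0 ± 2.73 CPM in control islets (log2 fold change -0.89, adjusted p = 0.0135) and begins 23245 bp downstream of Gm30648. All 4 of these neighbours were called in all 6 leave-one-out fits.

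In the pairs with the closest starts the coding gene was not called by edgeR. Snhg18 and Sema5a, a semaphorin, start on opposite strands with 147 bp between them. Sema5a had 11.4, 5.61 and 11.2 CPM in knockout replicates 1 to 3, against 10.9, 7.62 and 9.61 CPM in control replicates 1 to 3, and its log2 fold change of 0.01 (SE 0.30) did not pass the test (edgeR adjusted p = 0.988) while Snhg18 fell. Without knockout replicate 2 it was 0.27 (adjusted p = 0.459). 5031425E22Rik and Kmt2e, of the family of histone lysine methyltransferases, start on opposite strands with 171 bp between them. Kmt2e had 114, 75.4 and 101 CPM in knockout replicates 1 to 3, against 142, 139 and 147.9 CPM in control replicates 1 to 3, a log2 fold change of -0.56 (adjusted p = 0.0785). The groups of Kmt2e did not overlap, and the Wald test of DESeq2 called it lower (adjusted p = 0.0262). Frmd8, which ends 4223 bp upstream of Neat1, had 0.51 (edgeR adjusted p = 0.152) as its log2 fold change. Rbbp6, 28857 bp from Gm45847, had -0.29 (edgeR adjusted p = 0.201). Opa1, 95925 bp from Gm49636, and Smug1, 12620 bp from Gm49477, had log2 fold changes of -0.03 and -0.09.

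**Figure D5:**
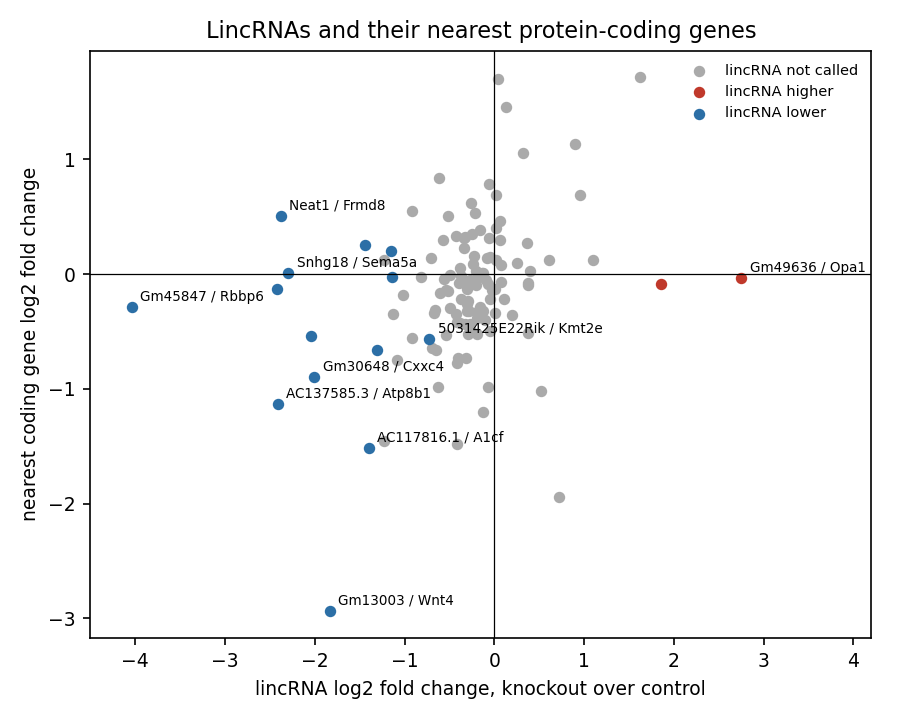
Log2 fold change, knockout over control, of the nearest protein-coding gene against that of the lincRNA for all pairs that could be tested other than Xist, with lincRNAs lower in knockout islets in blue, higher in red and not called in grey. Wnt4, A1cf, Atp8b1 and Cxxc4, each the nearest coding gene of a lincRNA that fell, fell too. Sema5a, Kmt2e, Frmd8 and Rbbp6 were not called by edgeR (DESeq2 called Kmt2e lower).

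The properties that the annotation gives are described here without a test. The leading transcript had a median length of 1957 bases for the 17 that fell, 2312 bases for the 3 that rose and 1707 bases for the 130 not called, and a median of 3, 2 and 2 exons in the same order. Their GC content had medians of 47.5%, 45.04% and 46.7%. Over the 150, Spearman's rho between log2 fold change and length was -0.07, and between log2 fold change and mean CPM -0.06, as a description across genes that share libraries. By rank, 8 of the top 50, 6 of the next 50 and 3 of the last 50 fell. The 17 that fell lay on 13 chromosomes and none on the X chromosome, which held 5 of the 150.

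Some of the 150 share sequence with other genes or overlap them, which makes their reads uncertain. Of the 150, 42 shared at least 20% of their 31-base stretches with transcripts of other genes, and AC160336.1 was the only one of these among the 20 called. Another gene overlapped 60 of the 150, among them 5 of the 17 that fell and 1 of the 3 that rose, Gm49477, which overlaps D930007P13Rik on the other strand. With the replicate block, 9 more lincRNAs fell: 4632428C04Rik, 5330434G04Rik, AI480526, Dbpht2, Ftx, Gm36738, Gm3924, Gm45330 and Lockd, an RNA made just downstream of the cell cycle inhibitor gene Cdkn1b. Lockd had 4.36, 6.77 and 3.48 CPM in knockout replicates 1 to 3, against 6.74, 11.1 and 11.6 CPM in control replicates 1 to 3 (log2 fold change -1.02, adjusted p = 0.0864 without and 0.0491 with the block, edgeR quasi-likelihood test).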

How the data were processed

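Polyadenylated RNA was sequenced from 3 knockout and 3 control islet samples. The authors deposited, per the file headers, 1 Salmon table per library, which lists estimated counts, TPM and lengths of transcripts. The authors also deposited signal values per gene (counts scaled between libraries, not used here) and their own test results (log2 fold changes, p-values and a mean signal), used beside the fits made here. Trimmomatic, Salmon, DESeq2, GRCm38 and mm10 are named in the submitters' processing notes; their versions and the annotation: not given in the sources used here.

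Transcripts were matched by identifier to GENCODE vM21 (139852 of 140948, with 99.6 to 99.7% of reads). Per gene, estimated counts were added up and rounded. Genes passing filterByExpr (minimum count 10) were scaled by TMM and tested, two-sided, by quasi-likelihood (edgeR 4.0.16, R 4.3.3) with group as the only term, and adjusted by Benjamini-Hochberg at 0.05. CPM per library and group means are on TMM-scaled library sizes, while ranks and mean CPM over 6 libraries use library totals. SEs come from the change and its F statistic. limma 3.58.1 (voom) and DESeq2 1.42.0 served as alternatives. The procedure was tested on simulated counts. Neighbours are by distance between annotated starts.

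Deviations from group means correlated at 0.427, 0.135 and 0.196 between same-numbered libraries, each over 0.1. The replicate number was therefore used as a block in an alternative fit only, and the main test was unpaired. Correlations between libraries of different numbers ran from -0.318 to 0.14. The pairing was thus clearest for replicate 1 and weaker for replicates 2 and 3. With the block 2430 genes were called in all, against 1634 in the main test. Knockout replicate 2 correlated no less with control replicate 3 (0.14) than with control replicate 2 (0.135). Within groups, libraries differed by far more than sampling noise.

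The members, lists and rules were chosen with earlier results of these data known. Named lincRNAs are the 12 of most reads, up to 12 lower and 12 higher of largest change among those called without overlap, up to 4 per list, those beside the rank limit and the nearest coding genes. The alternative without replicate 2 of both groups, the remaining called lincRNAs, Gm27000, 1810028F09Rik, 6720427I07Rik, Epb41l4aos, Lockd and those added by the block were chosen after values were seen.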

Additional observations from a re-analysis of the deposited data

How the results depend on the processing

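Of the 150 lincRNAs, 17 fell and 3 rose in knockout islets. DESeq2's Wald test gave 26 and 6, and 2635 called genes in all against 1634. The replicate block gave 26 and 3, and 2430 genes in all, and lost none of the 20 calls. Leaving out 1 library at a time gave 11 to 21 lower, 3 to 4 higher and 737 to 1330 genes in all. Without knockout replicate 3, the lowest count, 11 fell; 10 that fell and 3 that rose were called in all 6 of these fits. Leaving out replicate 2 of both groups, chosen after seeing the data, gave 6 lower, 1 higher and 435 genes in all, with 6 of the 20 calls kept. Ranking by control libraries gave 1 higher, and ranking by TPM 8 higher. Size factors, no filter, limma-voom and a length offset gave 16 to 23 lower and 3 higher; voom lost 2610035D17Rik and the length offset lost 5031425E22Rik. The ratio of the summed read share, knockout over control, was 1.19, and 0.913 to 1.33 with 1 library left out. Among 56 named results, no called one changed direction. With 3 libraries a group, of which 1 in each stood apart, changes under about the spread of the libraries were not detectable, and a missed threshold does not show equal levels.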
